A study of Mus musculus with 56 samples.

Results

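The 8 genes Clec4d, Clec4e, Clec4n, Clec7a, Clec4a2, Clec12a, Clec10a and Mgl2 encode C-type lectin receptors of myeloid cells. They were taken by their symbols from the 2 deposited count tables, where they are 8 of 52636 genes in the heart table and 8 of 57010 genes in the table of bone, muscle and skin. All 8 were found in both tables and all 8 passed the filter on low counts in every fit. Their RNA was measured in bulk in monocytes and macrophages sorted after 1 injury per mouse, made at an age of 10 weeks: a punch wound through the whole skin, loss of a volume of muscle, a cranial bone defect or an infarct of the heart. The depleted groups were Foxp3(DTR/GFP) mice given diphtheria toxin, and the controls were wild-type C57BL/6J mice given the same toxin. These mice carry the receptor for the toxin in the Foxp3 locus, so that toxin kills regulatory T cells (Tregs). All groups, controls included, received toxin at 20 ng/g, so that genotype and depletion go together and cannot be told apart. The 56 libraries fell into 16 groups: 3 depleted and 3 control libraries from heart and from muscle at day 4 and again at day 7, 5 depleted and 5 control libraries from bone at day 7 and 3 and 3 at day 10, and 4 depleted and 4 control libraries from skin at day 4 and again at day 7. The 6 heart columns used as day 7 carry no day in their names. They were taken as day 7 because the other 6 are named for day 4, and every heart value of day 7 and every heart change between days rests on this. Bone was labelled as days 7 and 10, where the design text of the series has days 4 and 7. No label states which animals a library was made from, so p-values speak of the variation among libraries, some of which may be technical.

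C-type lectin receptors bind sugars, lipids or crystals exposed by microbes and by dying cells. Clec4d (also called MCL), Clec4e (Mincle) and Clec4n (Dectin-2) pair with the adaptor FcRγ, encoded by Fcer1g, and Clec7a (Dectin-1, a receptor for fungal β-glucan) carries its own activating motif, and all of them signal through the kinase Syk and the adaptor Card9 towards cytokine genes. Clec4a2 (DCIR) and Clec12a (MICL) carry inhibitory motifs that recruit phosphatases such as that encoded by Ptpn6, while Clec10a (MGL1) and Mgl2 (CD301b) are endocytic receptors for galactose or N-acetylgalactosamine and serve as markers of alternatively activated macrophages and of some dendritic cells.

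The genes lie in 3 places of the mouse genome (GRCm38, GENCODE annotation). Clec4a2, Clec4n, Clec4d and Clec4e follow each other on chromosome 6, with 85843, 15089 and 6523 bases between neighbours, and Clec4d and Clec4e are transcribed towards each other. Clec12a and Clec7a lie farther along chromosome 6, 96287 bases apart, and Mgl2 and Clec10a lie 18646 bases apart on chromosome 11. The annotation lists Clec7a as a polymorphic pseudogene and the other 7 as protein coding. Words of 31 bases were compared with all other annotated transcripts, and 22.6% of those of Mgl2 and 14.8% of those of Clec10a occurred elsewhere, most of them in the other gene of that pair, as did 10.3% of those of Clec4a2. Counts of these 3 genes are therefore uncertain as to which relative the reads came from, while the other 5 shared at most 1.96%. In the last 500 bases of the transcripts, the end that 3′ libraries read, the share was 21.3% for Clec10a, 14% for Clec4a2, 9.79% for Mgl2 and 3.9% for Clec4n, and 0% for the other 4.

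RefSeq promoter sequences (GRCm38.p6, from 250 bases before to 50 after the transcription start, in transcript direction) were available for 6 of the 8 genes. These 5 motifs, given with their shares after the sequences, were searched on both strands. The promoters of Clec4d and Clec4e are shown because the changes of these neighbouring genes are set side by side, that of Clec7a because it rose in muscle and skin, that of Clec12a because it rose in heart and that of Mgl2 because it had the largest rise in skin. Capitals mark the motif match, and the first 2 sequences hold none.
Clec4d, chr6:123261857-123262156, plus strand: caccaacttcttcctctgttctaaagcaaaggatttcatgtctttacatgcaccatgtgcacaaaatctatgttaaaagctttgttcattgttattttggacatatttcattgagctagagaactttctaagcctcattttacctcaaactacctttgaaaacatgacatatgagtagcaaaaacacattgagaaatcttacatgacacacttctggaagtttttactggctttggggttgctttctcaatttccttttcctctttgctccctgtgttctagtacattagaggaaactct
Clec4e, chr6:123289822-123290121, minus strand: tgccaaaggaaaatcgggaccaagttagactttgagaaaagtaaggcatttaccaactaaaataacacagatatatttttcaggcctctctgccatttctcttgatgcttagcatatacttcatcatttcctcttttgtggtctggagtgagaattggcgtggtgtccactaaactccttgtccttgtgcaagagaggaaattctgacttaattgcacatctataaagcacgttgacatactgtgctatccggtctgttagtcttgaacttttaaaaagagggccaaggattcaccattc
Clec7a, chr6:129472730-129473029, minus strand, STAT motif: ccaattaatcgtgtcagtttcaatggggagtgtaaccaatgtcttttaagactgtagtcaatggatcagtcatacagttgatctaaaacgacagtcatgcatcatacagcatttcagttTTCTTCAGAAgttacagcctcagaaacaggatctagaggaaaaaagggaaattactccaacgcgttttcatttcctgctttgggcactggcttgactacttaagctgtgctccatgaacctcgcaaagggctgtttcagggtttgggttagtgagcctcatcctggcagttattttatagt
Clec12a, chr6:129349994-129350293, plus strand, C/EBP motif: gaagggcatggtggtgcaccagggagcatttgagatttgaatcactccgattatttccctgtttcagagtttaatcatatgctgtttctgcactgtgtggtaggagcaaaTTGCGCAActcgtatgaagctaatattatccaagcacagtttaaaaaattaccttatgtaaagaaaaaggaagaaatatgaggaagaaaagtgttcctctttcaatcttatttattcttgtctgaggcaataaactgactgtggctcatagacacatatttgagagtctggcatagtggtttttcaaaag
Mgl2, chr11:70130107-70130406, plus strand, NF-kappaB motif: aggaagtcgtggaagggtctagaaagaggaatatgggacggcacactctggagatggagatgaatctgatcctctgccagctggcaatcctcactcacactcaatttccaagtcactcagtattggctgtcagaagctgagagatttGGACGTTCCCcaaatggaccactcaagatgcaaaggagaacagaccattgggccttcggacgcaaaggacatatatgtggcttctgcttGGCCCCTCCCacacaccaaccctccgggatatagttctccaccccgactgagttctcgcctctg
The C/EBP motif TTGCGCAA began at position -140 from the start site of Clec12a and occurs in 0.183% of the 32851 promoters searched. These leave out a whole chromosome, and the shares of all 5 motifs refer to them. The STAT motif (TTC, 4 bases of any kind, GAA) stood at -131 in Clec7a and occurs in 6.95%, and the NF-kappaB motif (GGG, 5 bases of any kind, CC) stood in 2 places in Mgl2 and occurs in 50.8%. Mgl2 also held the PU.1 motif AGGAAGT at -250 (9.35% of promoters) and Clec4a2 the AP-1 motif TGACTCA at 31 (5.2%). None of these matches overlapped another. These matches describe letters only, and no binding was measured.

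Libraries of skin held 3013776 to 5392932 counts in total, those of muscle 3439692 to 6397434, those of bone 2318268 to 5835113 and those of heart 2642452 to 9788811. Levels are given in CPM (the share of the effective library size, scaled as usual for this unit), as mean ± SD over the libraries of a group, and no level is compared between genes. Changes are log2 ratios with their standard error (SE), and p-values come from the quasi-likelihood test of edgeR, adjusted over all genes tested after Benjamini and Hochberg. A gene is said to rise or fall where its adjusted p was below 0.05. Markers of monocytes and macrophages (8 genes, Lyz2 highest) were detected in all groups, with summed levels of 6976 to 34048 CPM per library. Foxp3 had 0 counts in all heart libraries and group means of at most 1.64 CPM elsewhere in either arm, was not tested and checks no label, since T cells were not the sorted cells. Markers of other cells were also present: the 14 neutrophil markers summed to 9052 to 32354 CPM in depleted and 5186 to 13690.3 CPM in control bone libraries, and in the other tissues to 194 to 2933 CPM. In bulk RNA, fewer cells of a type and less RNA per cell cannot be told apart.

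Among control cells, Clec4e, the Mincle gene, was highest in skin. At day 7 it stood at 150.2, 95.9, 136, 195 and 133 CPM in bone, at 109, 97.3 and 80.5 CPM in muscle and at 637, 746, 583 and 489 CPM in skin. Every skin library was above every library of the other two tissues. The log2 change was -2.11, SE 0.21, adjusted p = 5.66e-10 for bone over skin and -2.68, SE 0.26, adjusted p = 4.08e-09 for muscle over skin. At day 4 it was -2.83, SE 0.27, adjusted p = 8.41e-10 for muscle over skin. Clec4d was ordered in the same way, at 102 ± 36.4 CPM in bone, 67.3 ± 17.4 in muscle and 180.0 ± 15.5 in skin, where bone and muscle did not differ beyond their spread.

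Mgl2 had another order among control cells at day 7. It was at 43.3, 24.4, 26.6, 38.7 and 51.9 CPM in bone, 375, 233 and 229 CPM in muscle and 126, 124, 121 and 133 CPM in skin, so that the 3 tissues did not overlap. The log2 change was -2.93, SE 0.32, adjusted p = 1.61e-08 for bone over muscle, -1.78, SE 0.30, adjusted p = 2.39e-05 for bone over skin and 1.15, SE 0.32, adjusted p = 0.0153 for muscle over skin. The last call was lost without muscle control 1 (log2 change 0.87 to 1.27 over the libraries left out). In all, bone over muscle called 3 of 8 receptors at day 7, all lower (Mgl2, Clec10a and Clec4a2), where 13.6% (6.28% higher, 7.32% lower) of 14340 genes passed. Bone over skin called 7, where 25.6% (11.5% higher, 14.1% lower) passed: Clec12a was higher (log2 change 0.82), 6 were lower and Clec7a did not pass. Clec10a among them lost its call without skin control 3 (log2 change -0.91 to -0.65 over the libraries left out). Muscle over skin called 5 at day 7 (11.9% of genes, with 5.17% higher and 6.76% lower) and 3 at day 4 (12.3%, with 5.51% higher and 6.77% lower). Clec12a was higher and Clec4d and Clec4e were lower on both days, and Clec7a and Mgl2 were higher at day 7. Of these, Clec7a at day 7 (log2 change 0.54 to 0.70) and Clec12a at day 4 (0.37 to 0.53) lost their calls without any of 6 of the 7 libraries. Clec4d at day 4 lost it without muscle control 1 (-1.20 to -0.91). Marker sums also differed between these control tissues at day 7. Those of neutrophils averaged 9743 ± 3110 CPM in bone, 225 ± 24.3 in muscle and 1385 ± 379 in skin. Those of resident macrophages averaged 364 ± 89.0, 847 ± 150 and 619 ± 222 CPM in that order. For classical monocytes they were 2647 ± 506, 959 ± 151 and 863 ± 78.9 CPM. The part of these cells was not tested, and the kind of injury cannot be told apart from the tissue. Heart is in another table and was not tested against the other tissues. Within it, control levels at day 7 were 64.2 ± 12.1 CPM for Clec4e, 30.8 ± 7.59 CPM for Mgl2 and 372 ± 23.9 CPM for Clec12a.

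**Figure D1:**
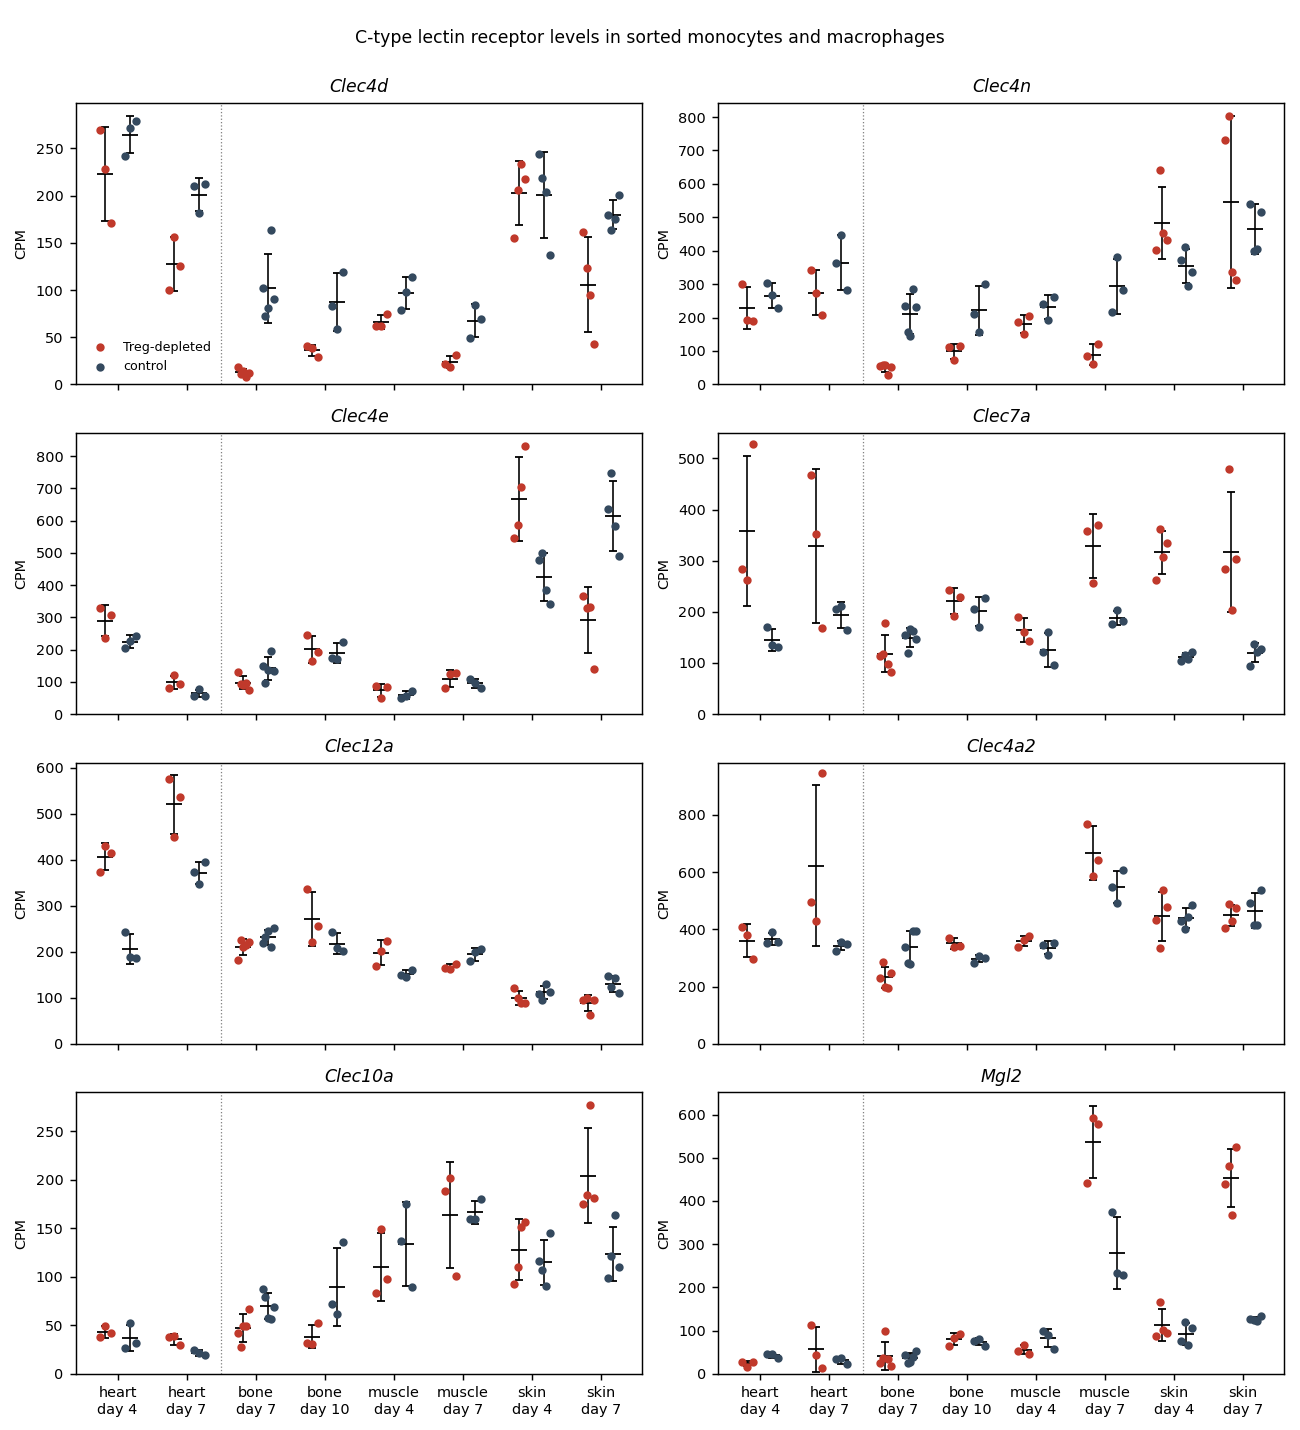
Level of each receptor gene in CPM (vertical axis, linear from 0) by tissue and day after injury, with 1 point per library, red for Treg-depleted and dark blue for control, and the group mean ± SD in black. The dotted line sets heart apart, whose counts come from another table. Clec4d is low in depleted bone libraries at day 7 (12.7 ± 4.08 CPM), and Mgl2 is high in depleted muscle and skin libraries at day 7.

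Depletion moved the receptors in different directions by tissue, as the map of depletion changes shows. In bone at day 7, 4 of 8 receptors fell, where 23.6% (11% higher, 12.6% lower) of 12709 genes passed in either direction, and at day 10, 3 fell (17.2%, with 8.95% higher and 8.22% lower). In muscle at day 7, 2 fell and 2 rose (8.59% of 12907 genes, with 4.67% higher and 3.92% lower). In skin at day 4, 1 rose (3.57% of 12616 genes, with 2.12% higher and 1.45% lower), and at day 7, 3 rose and 2 fell (6.21%, with 2.95% higher and 3.27% lower). In heart at day 4, 1 rose (11.1% of 11339 genes, with 4.25% higher and 6.85% lower), and at day 7, 2 rose and 1 fell (3.14%, with 1.58% higher and 1.56% lower). At muscle day 4 edgeR called 0, DESeq2 0 and limma-voom 0, with 4 at an unadjusted p below 0.05 (0.155% of genes passed, with 0.0542% higher and 0.101% lower). The median log2 change of the 8 ranged from -0.56 at bone day 7 to 0.67 at heart day 7, while that of all genes tested lay between -0.02 and 0.00.

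**Figure D2:**
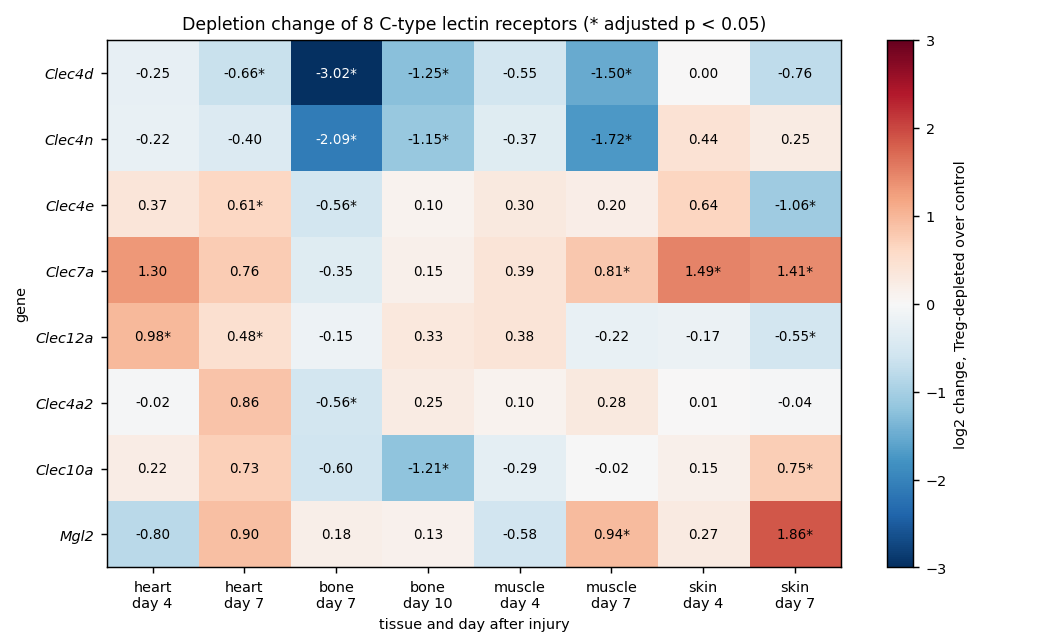
Log2 change of each receptor gene, Treg-depleted over control, in each tissue and day. Numbers in the cells are the changes, an asterisk marks an adjusted p below 0.05, and the colours run from -3 (blue) to 3 (red). Clec4d and Clec4n are blue in bone and in muscle at day 7, and Clec7a and Mgl2 are red in muscle and skin at day 7.

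Clec4d, the MCL gene, fell most in bone. At day 7 it was at 18.8, 11.1, 13.7, 7.66 and 12.1 CPM in depleted cells and 102, 72.1, 80.6, 164 and 90.2 CPM in controls. The highest depleted library was far below the lowest control (log2 change -3.02, SE 0.26, adjusted p = 3.92e-07). At bone day 10 it was at 40.5, 38.3 and 29.5 CPM in depleted cells and 82.6, 58.7 and 119 CPM in controls, again without overlap (log2 change -1.25, SE 0.32, adjusted p = 0.0114). At muscle day 7 it was at 21.7, 18.5 and 30.6 CPM in depleted cells and 48.9, 83.7 and 69.2 CPM in controls. No depleted library reached the lowest control there (log2 change -1.50, SE 0.22, adjusted p = 0.00023). At heart day 7 it was at 99.95, 157 and 126 CPM in depleted cells and 210.1, 181 and 212 CPM in controls (log2 change -0.66, SE 0.16, adjusted p = 0.0366). That call was lost without any single library except depleted FDG2 (log2 change -0.84 to -0.51). At skin day 7 the depleted libraries spread from 42.4 to 161 CPM below controls at 164 to 201 CPM, a difference that did not pass (log2 change -0.76, SE 0.28, adjusted p = 0.138).

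Clec4n, the Dectin-2 gene next to Clec4d, fell in the same comparisons of bone and muscle. At bone day 7 it was at 56.2, 56.7, 56.5, 28.8 and 51.2 CPM in depleted cells and 234, 156, 144, 287 and 232 CPM in controls, with no overlap (log2 change -2.09, SE 0.24, adjusted p = 5.19e-06). At bone day 10 it was at 111, 72.9 and 114 CPM in depleted cells and 209, 156 and 300.2 CPM in controls (log2 change -1.15, SE 0.30, adjusted p = 0.0128). At muscle day 7 it was at 85.1, 59.8 and 122 CPM in depleted cells and 218, 380.4 and 283 CPM in controls. The groups did not overlap on any of these days (muscle day 7 log2 change -1.72, SE 0.23, adjusted p = 0.000198). In skin the depleted libraries of day 7 were at 729.9, 803, 336 and 311 CPM, on both sides of controls at 398 to 540.4 CPM, and the difference did not pass (log2 change 0.25, SE 0.26, adjusted p = 0.69). In heart it did not pass at either day (log2 change -0.22 at day 4 and -0.40 at day 7).

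The falls of Clec4d and Clec4n at bone day 7 and at muscle day 7 held with each library left out. At bone day 10 the call of Clec4d was lost without depleted 3 or control 3 (log2 change -1.47 to -0.96) and that of Clec4n without control 3 (-1.35 to -0.87). Both day 10 calls were also lost with the level of the ribosomal RNA gene Rn18s-rs5 as a covariate. Over all settings other than libraries left out, the day 10 log2 change was -1.41 to -1.21 for Clec4d and -1.18 to -1.09 for Clec4n. The mean level of Rn18s-rs5 itself differed between the arms, so this covariate cannot be fully told apart from depletion. Rn18s-rs5 averaged 84925 ± 18734 CPM in depleted and 19709 ± 4009.7 CPM in control cells of bone at day 10, and 28393 ± 16168 CPM in depleted and 8407 ± 2177 CPM in control cells of muscle at day 7. Marker sums moved beside these falls. The 8 monocyte and macrophage markers (Lyz2 highest) summed to 7310.3 to 11062 CPM in depleted and 11529 to 22112 CPM in control libraries of bone at day 7, with 6 of 8 lower. At bone day 10 they summed to 6976 to 9052 CPM in depleted and 11711 to 12824 CPM in control libraries, with 4 lower and 1 higher. Neither pair of groups overlapped in these sums. In bone at day 7 the 7 resident macrophage markers (Cbr2 highest) summed to 43.1 to 87.0 CPM in depleted and 272 to 488 CPM in control libraries, with 4 of 6 tested lower. The 5 classical monocyte markers (Ly6c2 highest) summed to 4990.4 to 5977 CPM in depleted and 2048 to 3157 CPM in control libraries there, with 4 of 5 higher. In muscle at day 7 neutrophil markers (Retnlg highest) summed to 1112 to 2933 CPM in depleted and 198 to 243 CPM in control libraries, with 6 of 11 tested higher, and resident macrophage markers (Folr2 highest) to 296 to 384 CPM in depleted and 731 to 1016 CPM in control libraries, with 4 of 6 tested lower. In bone 6 of 14 neutrophil markers were higher at day 7 and 8 at day 10. T and NK cell markers of bone day 7 summed to 158 to 272 CPM in depleted and 60.2 to 101 CPM in control libraries. Nkg7 had the highest mean, and 5 of 6 tested rose with depletion. Also at bone day 7, 3 of 6 tested markers of mast cells, basophils and eosinophils were higher. There 2 of 3 dendritic cell markers and 2 of 7 fibroblast markers tested were lower. The part of all these cells in the falls of Clec4d and Clec4n was not tested. Nor was it tested in the smaller falls of Clec4e and Clec4a2 at bone day 7.

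Clec4e, the Mincle gene, fell in skin and bone at day 7 and rose in heart at day 7. At skin day 7 it was at 365, 328, 333 and 139 CPM in depleted cells and 637, 746, 583 and 489 CPM in controls. All depleted libraries were lower than all controls (log2 change -1.06, SE 0.23, adjusted p = 0.00765). At skin day 4 the order was the opposite, at 545, 585, 703 and 833 CPM in depleted cells and 476, 499.7, 386 and 341 CPM in controls, without overlap, although the change did not pass (log2 change 0.64, SE 0.23, adjusted p = 0.147). At bone day 7 it fell to 130.2, 92.4, 89.5, 97.9 and 75.7 CPM in depleted cells against 150.2, 95.9, 136, 195 and 133 CPM in controls, with overlapping groups (log2 change -0.56, SE 0.18, adjusted p = 0.0247). That call was lost without depleted 2, depleted 5 or control 4 (log2 change -0.69 to -0.41). At heart day 7 it rose to 81.7, 120.3 and 92.7 CPM in depleted cells against 57.1, 78.1 and 57.3 CPM in controls (log2 change 0.61, SE 0.16, adjusted p = 0.0459). The heart call was lost without FDG2, FDG3, WT1 or WT4 (log2 change 0.44 to 0.78) and when only the groups compared were fitted. In heart at day 7, where Clec4d fell and Clec4e and Clec12a rose, neutrophil markers (Retnlg highest) summed to 404 to 736 CPM in depleted and 194 to 294 CPM in control libraries, with 4 of 12 tested higher. Resident macrophage markers (Stab1 highest) summed to 481 to 574 CPM in depleted and 826 to 932 CPM in control libraries there, with 3 of 6 tested lower, and 2 of 4 markers tested of mast cells, basophils and eosinophils were higher. The 8 monocyte and macrophage markers summed to 21328 to 26476 CPM in depleted and 27644 to 34048 CPM in control libraries, without overlap, and 0 of 8 passed the test in edgeR. Their part in the heart changes was not tested. At skin day 7, where Clec4e fell, neutrophil markers summed to 345 to 1914 CPM in depleted and 1118 to 1930.1 CPM in control libraries. Retnlg was highest in control and S100a8 in depleted cells. These sums overlapped, and of 12 tested, 2 were higher and 1 lower. Their part in the skin fall was not tested. The difference between the changes of Clec4d and Clec4e within a tissue was not tested.

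Clec7a, the Dectin-1 gene, rose in skin on both days and in muscle at day 7. At skin day 4 it was at 263, 361, 307 and 334 CPM in depleted cells and 104, 116, 108 and 121 CPM in controls (log2 change 1.49, SE 0.19, adjusted p = 4.99e-05). At skin day 7 it was at 283, 479, 203 and 303 CPM in depleted cells and 95.1, 136, 122 and 128 CPM in controls (log2 change 1.41, SE 0.19, adjusted p = 4.75e-05). Every depleted skin library exceeded every control of its day. At muscle day 7 it was at 359, 257 and 370.0 CPM in depleted cells and 177, 203 and 182 CPM in controls, also without overlap (log2 change 0.81, SE 0.18, adjusted p = 0.00665). These 3 rises held with each library left out, and that in muscle was lost with Rn18s-rs5 as a covariate. In heart at day 4 it was at 284, 262 and 528 CPM in depleted cells and 170.4, 135 and 130.3 CPM in controls. The groups did not overlap, yet the change missed the threshold (log2 change 1.30, SE 0.39, adjusted p = 0.0702), with depleted F3 far above the other depleted libraries. In bone it did not pass (log2 change -0.35 at day 7 and 0.15 at day 10). In depleted skin, markers of mast cells, basophils and eosinophils (9 genes, Mcpt8 highest in depleted skin) summed to 160.1 to 578 CPM at day 4, against 9.95 to 39.1 CPM in controls, with 2 of 7 tested higher. At day 7 they summed to 156 to 471 CPM in depleted and 84.0 to 166 CPM in control skin, with 2 higher and 3 lower. In muscle at day 7 (Prg2 highest in depleted cells) they summed to 215 to 504 CPM in depleted and 15.2 to 19.2 CPM in control libraries, with 5 of 5 tested higher. Classical monocyte markers (Plac8 highest in depleted skin) summed to 2534 to 4827 CPM in depleted and 1268 to 1882 CPM in control libraries of skin at day 4 and to 1616 to 2551 CPM in depleted and 795 to 968 CPM in control libraries at day 7. Depleted and control skin did not overlap in these sums on either day, and 3 of 5 were higher on each. Resident macrophage markers (Stab1 highest) had 3 of 6 tested lower at skin day 4 and 1 higher at day 7. The part of these cells in the skin and muscle changes of the receptors was not tested.

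Clec12a, the inhibitory receptor MICL, rose in heart. At day 4 it was at 374, 431 and 415 CPM in depleted cells and 243, 189 and 187 CPM in controls. The groups were well apart (log2 change 0.98, SE 0.13, adjusted p = 2.27e-05), and the call held with each library left out. At day 7 it was at 576, 449 and 536 CPM in depleted cells and 373, 348 and 396 CPM in controls (log2 change 0.48, SE 0.12, adjusted p = 0.0392), a call lost without any single library except FDG2 (log2 change 0.40 to 0.58) and when only the groups compared were fitted. In heart at day 4 the 5 classical monocyte markers (Plac8 highest in depleted cells) summed to 2431 to 4358 CPM in depleted and 1247 to 1776 CPM in control libraries, with 2 of 5 higher. Resident macrophage markers (Stab1 highest) summed to 384 to 654 CPM in depleted and 857 to 1064 CPM in control libraries at that day, without overlap and with 4 of 6 tested lower, and 3 of 12 neutrophil markers tested were lower. Their part in the rise was not tested. At skin day 7 Clec12a was lower, at 96.2, 98.8, 62.5 and 96.0 CPM in depleted cells and 147, 123, 144 and 109.7 CPM in controls (log2 change -0.55, SE 0.16, adjusted p = 0.0404). This call was lost without any of 7 of the 8 libraries (log2 change -0.63 to -0.41), when only the groups compared were fitted and with Rn18s-rs5 as a covariate. In bone and muscle it did not pass at any day.

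Clec4a2, the inhibitory receptor DCIR, changed in 1 of the 8 depletion comparisons. At bone day 7 it was at 232, 287, 199, 196 and 248 CPM in depleted cells and 337, 283, 280.0, 394 and 395 CPM in controls. Depleted 2 lay above controls 2 and 3, and the others did not overlap (log2 change -0.56, SE 0.13, adjusted p = 0.00275). It held with each library left out and was lost with Rn18s-rs5 as a covariate. Depleted FDG3 of heart day 7 was the highest of 495, 428 and 944 CPM, above controls at 324 to 355 CPM without overlap, and the change did not pass (log2 change 0.86, SE 0.24, adjusted p = 0.081).

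Mgl2, the CD301b gene, rose at day 7 in skin and muscle. In skin it was at 439.5, 481, 368 and 524 CPM in depleted cells and 126, 124, 121 and 133 CPM in controls. The lowest depleted library stood far above the highest control (log2 change 1.86, SE 0.19, adjusted p = 1.83e-06), and the call held with each library left out and when its counts were summed with those of Clec10a. In muscle it was at 441, 592 and 578 CPM in depleted cells and 375, 233 and 229 CPM in controls (log2 change 0.94, SE 0.21, adjusted p = 0.00845). That call was lost without control 2 or control 3 (log2 change 0.82 to 1.22), with Rn18s-rs5 as a covariate and when summed with Clec10a. Skin at day 4 did not pass (log2 change 0.27, SE 0.19, adjusted p = 0.543). In bone at day 7 the depleted libraries were at 24.0, 35.3, 97.9, 32.8 and 18.6 CPM, the third far above the others, and the change did not pass (log2 change 0.18, SE 0.37, adjusted p = 0.767). In heart at day 7 the depleted libraries were at 113, 43.2 and 12.02 CPM and the controls at 34.4, 35.9 and 22.1 CPM (log2 change 0.90, SE 0.63, adjusted p = 0.504). Dendritic cell markers (7 genes, Fscn1 highest) summed to 87.1 to 227 CPM in depleted and 44.4 to 153 CPM in control skin at day 7, with none of the 4 tested passing. In muscle they summed to 65.9 to 87.1 CPM in depleted and 91.6 to 94.2 CPM in control libraries at day 7. Their part in the rises was not tested.

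Clec10a, the MGL1 gene, fell in bone at day 10 and rose in skin at day 7. At bone day 10 it was at 31.9, 30.5 and 52.0 CPM in depleted cells and 71.7, 61.4 and 135 CPM in controls (log2 change -1.21, SE 0.31, adjusted p = 0.0119). At skin day 7 it was at 175, 184, 277 and 181 CPM in depleted cells and 98.9, 122, 163 and 109 CPM in controls (log2 change 0.75, SE 0.19, adjusted p = 0.0203). Neither pair of groups overlapped. The bone call was lost without depleted 1 or control 3 (log2 change -1.50 to -0.79), and the skin call without depleted 3 or control 1, 2 or 4 (0.57 to 0.90). Both were lost with Rn18s-rs5 as a covariate, and the bone call also when the counts were summed with those of Mgl2, where the log2 change was -0.45. Dendritic cell markers summed to 36.3 to 48.6 CPM in depleted and 96.2 to 133 CPM in control libraries of bone at day 10, with 2 of 3 tested lower and no overlap. Resident macrophage markers summed to 42.9 to 84.4 CPM and 125 to 264 CPM in that order, with 4 of 6 tested lower. Classical monocyte markers summed to 3775 to 4337 CPM and 1825 to 2600 CPM, with 4 of 5 higher. For mast cells, basophils and eosinophils the sums were 1297 to 2143 CPM and 295 to 738 CPM, with 3 of 6 tested higher. The part of all these cells in the fall was not tested. In muscle at day 7 the mean of Clec10a was nearly the same in both arms, at 164 ± 54.6 CPM in depleted cells and 166 ± 11.9 CPM in controls (log2 change -0.02, SE 0.27, adjusted p = 0.979).

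Differences of the depletion change between tissues were tested in a fit of bone, muscle and skin together. Bone against muscle at day 7 called 3 of 8, all lower in bone, where 8.28% (3.09% higher, 5.19% lower) of 14340 genes passed: Clec4d (log2 difference -1.51, SE 0.42, adjusted p = 0.0196), Clec7a (log2 difference -1.15, SE 0.28, adjusted p = 0.00542) and Clec4a2 (log2 difference -0.82, SE 0.19, adjusted p = 0.00364). The difference in Clec4d was lost without muscle depleted 3 or muscle control 1 (log2 difference -1.68 to -1.27). Bone against skin at day 7 called 5 of 8, all lower in bone (9.37% of genes, with 3.79% higher and 5.58% lower). They were Clec4d (log2 difference -2.23, SE 0.38, adjusted p = 0.000107), Clec4n (log2 difference -2.31, SE 0.36, adjusted p = 4.39e-05), Clec7a (log2 difference -1.73, SE 0.26, adjusted p = 1.15e-05), Mgl2 (log2 difference -1.65, SE 0.42, adjusted p = 0.00889) and Clec10a (log2 difference -1.31, SE 0.35, adjusted p = 0.012). These 5 held with each library left out, and that of Mgl2 was lost when only the groups compared were fitted. Muscle against skin at day 7 called 2 of 8 (2.78% of genes, with 2.26% higher and 0.516% lower). Clec4n was lower in muscle (log2 difference -1.95, SE 0.41, adjusted p = 0.00255) and Clec4e higher (log2 difference 1.28, SE 0.34, adjusted p = 0.0282), the second lost without 6 of the 14 libraries (log2 difference 1.05 to 1.48) and when only the groups compared were fitted. At day 4 muscle against skin had 0 of 8 by edgeR and limma-voom and 1 by DESeq2, with 2 at an unadjusted p below 0.05 (0.265% of genes passed in edgeR, with 0.16% higher and 0.105% lower). Each tissue has depleted and control libraries of its own in these tests, while the day 7 tests share the libraries of any tissue they have in common.

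Between days the largest changes were those of Mgl2 in muscle and skin and of Clec4e in heart. In muscle Mgl2 was higher at day 7 than at day 4 in both arms. Depleted muscle had 441, 592 and 578 CPM at day 7 and 53.2, 66.3 and 46.1 CPM at day 4 (log2 change 3.29, SE 0.23, adjusted p = 6.84e-08), and control muscle 375, 233 and 229 CPM at day 7 and 99.2, 89.5 and 58.2 CPM at day 4 (log2 change 1.77, SE 0.22, adjusted p = 0.000121). No library of day 4 reached any of day 7. Dendritic cell markers (Fscn1 highest) summed to 8.94 to 15.5 CPM at day 4 and 65.9 to 87.1 CPM at day 7 in depleted muscle. In control muscle they summed to 14.9 to 24.7 and 91.6 to 94.2 CPM in that order. Sums of fibroblast markers were also higher at day 7, and those of resident macrophage markers lower, without overlap in either arm. The part of other cells in these and all further changes between days was not tested. The depletion change of Mgl2 itself differed between days in muscle (log2 difference 1.52, SE 0.31, adjusted p = 0.0139) and in skin (log2 difference 1.59, SE 0.27, adjusted p = 0.00507). Both differences held with each library left out, and that in muscle was lost with Rn18s-rs5 as a covariate and when summed with Clec10a. In skin, depleted cells had 439.5, 481, 368 and 524 CPM at day 7 and 86.8, 167, 100.4 and 94.4 CPM at day 4 (log2 change 2.05, SE 0.20, adjusted p = 6.69e-06), while the change in control skin did not pass (log2 change 0.46, SE 0.19, adjusted p = 0.274).

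Clec4e fell with time in heart in both arms. Depleted heart cells had 81.7, 120.3 and 92.7 CPM at day 7 and 328, 236 and 306 CPM at day 4 (log2 change -1.56, SE 0.16, adjusted p = 8.91e-06). Control heart cells had 57.1, 78.1 and 57.3 CPM at day 7 and 204, 228 and 243 CPM at day 4 (log2 change -1.81, SE 0.16, adjusted p = 1.76e-07). The 2 days did not overlap in either arm. The 5 classical monocyte markers summed to 2431 to 4358 CPM at day 4 and 499 to 796 CPM at day 7 in depleted heart. In control heart they summed to 1247 to 1776 and 401 to 644 CPM in that order. Sums of monocyte and macrophage markers were higher at day 7 in control heart, without overlap, and overlapped between days in depleted heart. The part of these cells in the fall of Clec4e was not tested. In skin Clec4e fell in depleted cells (log2 change -1.17, SE 0.23, adjusted p = 0.00863) and did not pass in controls (log2 change 0.54, SE 0.23, adjusted p = 0.297), and the depletion change differed between the days (log2 difference -1.71, SE 0.33, adjusted p = 0.0128), a call that held with each library left out. In depleted muscle Clec4d and Clec4n also fell between days (Clec4d log2 change -1.47, SE 0.21, adjusted p = 8.86e-05 and Clec4n log2 change -1.01, SE 0.23, adjusted p = 0.00483). The depletion change of Clec4n differed between days in muscle (log2 difference -1.36, SE 0.32, adjusted p = 0.0371), a call lost without any of 9 of the 12 libraries (log2 difference -1.65 to -1.13) and with Rn18s-rs5 as a covariate.

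In depleted bone the later day was higher for 5 of the 8 receptors, where 12.2% (7.13% higher, 5.04% lower) of genes passed: Clec4d (log2 change 1.54, SE 0.30, adjusted p = 0.00293), Clec4e (log2 change 1.07, SE 0.20, adjusted p = 0.00191), Clec4n (log2 change 1.02, SE 0.26, adjusted p = 0.0168), Clec7a (log2 change 0.93, SE 0.19, adjusted p = 0.00337) and Clec4a2 (log2 change 0.62, SE 0.14, adjusted p = 0.00847). Clec4n lost its call without depleted 1 or 3 of day 10 (log2 change 0.87 to 1.19), and Clec4a2 when summed with its relatives. In control bone edgeR, DESeq2 and limma-voom called 0, with 2 at an unadjusted p below 0.05 (0.0393% of genes passed in edgeR, with 0.0393% higher and 0% lower). The depletion change did not differ between days by edgeR, with 0 of 8 called and 5 at an unadjusted p below 0.05 (0% of genes passed, with 0% higher and 0% lower), 0 by limma-voom and 2 by DESeq2. In depleted heart 2 of 8 receptors were higher at day 7 and 2 lower (27.3% of genes, with 13.7% higher and 13.7% lower). In control heart 1 was higher and 2 were lower (31.8% of genes, with 15% higher and 16.9% lower). Depleted muscle had 3 higher and 2 lower (19.4% of genes, with 10.7% higher and 8.72% lower), and control muscle 2 higher (7.24% of genes, with 4.49% higher and 2.75% lower). Depleted skin had 1 higher and 1 lower (2.62% of genes, with 1.36% higher and 1.25% lower). Control skin had 0 by edgeR, DESeq2 and limma-voom, with 2 at an unadjusted p below 0.05 (2.27%, with 1.42% higher and 0.848% lower). The depletion change differed between days for 2 receptors in muscle (2.41%, with 1.59% higher and 0.821% lower) and 2 in skin (0.848%, with 0.262% higher and 0.587% lower). In heart it did so for 0 by all 3 tools, with 2 at an unadjusted p below 0.05 (4.09%, with 3.21% higher and 0.882% lower).

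**Figure D3:**
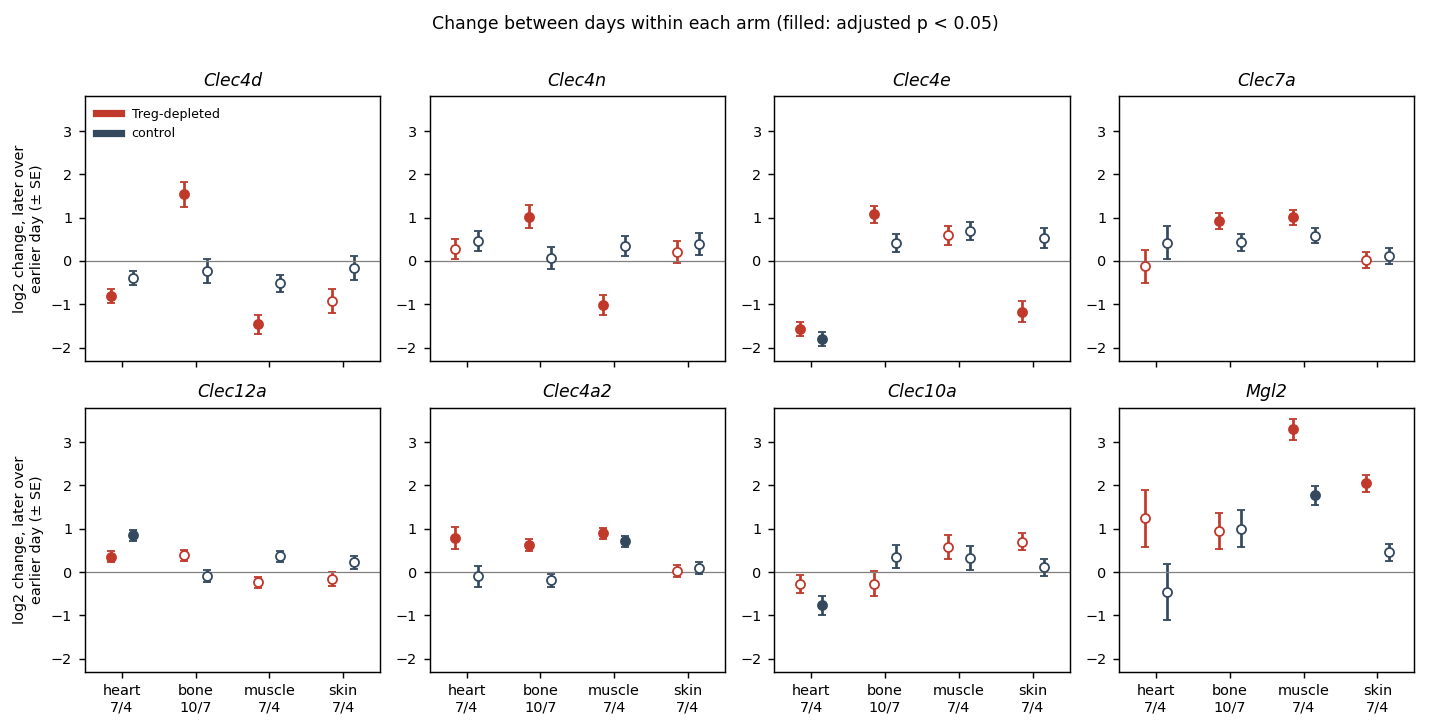
Log2 change of each receptor gene between the later and the earlier day (day 7 over 4, or 10 over 7 in bone) in Treg-depleted cells (red) and controls (dark blue), with bars for ± SE. Filled points had an adjusted p below 0.05. Mgl2 rises between days in both arms of muscle, and Clec4e falls in both arms of heart.

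Among the other changes between days, Clec12a rose in control heart (log2 change 0.85, SE 0.13, adjusted p = 4.58e-05), with all libraries of day 7 above all of day 4. Its rise in depleted heart (log2 change 0.36, SE 0.12, adjusted p = 0.0401) was lost without any of 5 of the 6 libraries (log2 change 0.27 to 0.45), with RLE normalization, by DESeq2 and when only the groups compared were fitted. Clec4a2 rose in muscle in depleted cells (log2 change 0.90, SE 0.13, adjusted p = 7.34e-05) and in controls (log2 change 0.72, SE 0.13, adjusted p = 0.00184). When summed with its relatives the second call was lost. Clec7a rose in depleted muscle (log2 change 1.01, SE 0.18, adjusted p = 0.000495), a call lost with Rn18s-rs5 as a covariate, as was that of Clec4n there. Clec4d fell in depleted heart (log2 change -0.81, SE 0.16, adjusted p = 0.00193). Clec4a2 rose in depleted heart (log2 change 0.79, SE 0.24, adjusted p = 0.034), lost without F2, F3 or FDG3 (log2 change 0.35 to 0.99) and when only the groups compared were fitted. Clec10a fell in control heart (log2 change -0.77, SE 0.21, adjusted p = 0.00944), lost without W3 (log2 change -0.96 to -0.43) and when summed with Mgl2.

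Signalling genes of these receptors are given beside them. They and the output, lectin receptor and regulator genes below were tested with edgeR only. No library was left out and no other setting was run for them. Of 15 genes of activating signalling, 1 rose and 4 fell with depletion at bone day 7, where 23.6% of all genes passed, and 2 rose and 2 fell at heart day 4, where 11.1% did. In the other 6 comparisons 0 to 2 passed. Fcer1g, which encodes the adaptor FcRγ, fell at bone day 7, to 1456 ± 123 CPM in depleted against 2007 ± 371 CPM in control cells (log2 change -0.48, SE 0.12, adjusted p = 0.00619), and at bone day 10 (log2 change -0.48, SE 0.16, adjusted p = 0.037). Syk fell at heart day 4 (log2 change -0.49, SE 0.14, adjusted p = 0.0324), and Card9 passed in 0 of 8 comparisons. Prkcd, a kinase between Syk and Card9, rose at heart day 4 (log2 change 0.41, SE 0.13, adjusted p = 0.0435), muscle day 7 (log2 change 0.50, SE 0.13, adjusted p = 0.0175) and skin day 7 (log2 change 0.66, SE 0.15, adjusted p = 0.00853). Ptpn6, a phosphatase recruited by inhibitory receptors, rose at bone day 7 (log2 change 0.38, SE 0.11, adjusted p = 0.013). Of the 3 inhibitory genes, 2 rose there and 0 passed in the other 7 comparisons.

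Among 12 cytokine and inflammatory genes known as outputs of Syk and Card9, 6 fell and 1 rose at skin day 7 (6.21% of all genes passed), and 2 rose and 0 fell at skin day 4 (3.57%). Of 11 tested in bone, 6 fell and 1 rose at day 7 (23.6%) and 1 fell and 2 rose at day 10 (17.2%). Of 11 tested in muscle, 4 fell and 1 rose at day 7 (8.59%) and 0 passed at day 4 (0.155%). In heart 1 fell at day 4 (11.1%) and 0 passed at day 7 (3.14%). The median log2 change of the list was 0.12 at day 4 and -1.01 at day 7 in skin, -0.83 at day 7 and -0.29 at day 10 in bone, 0.18 at day 4 and -0.53 at day 7 in muscle, and 0.04 at day 4 and -0.25 at day 7 in heart. Tnf fell at skin day 7, to 50.9 ± 9.30 CPM in depleted against 167 ± 22.5 CPM in control cells (log2 change -1.70, SE 0.22, adjusted p = 3.19e-05), and at bone and muscle day 7. Il1b fell in the same 3 comparisons, with log2 changes of -0.74 in skin, -0.83 in bone and -0.65 in muscle. Il10, an anti-inflammatory cytokine, fell at bone days 7 and 10, muscle day 7 and skin day 7. The log2 changes were -1.88, -2.61, -1.60 and -1.91 in that order. Il10 levels in bone were near the floor, at 0.61 ± 0.43 CPM in depleted and 2.34 ± 0.87 CPM in control cells at day 7. At bone day 10 they were 0.54 ± 0.35 and 3.57 ± 1.03 CPM in that order. At day 7 they were 2.66 ± 1.00 and 8.30 ± 1.47 CPM in muscle and 2.82 ± 2.02 and 11.2 ± 2.41 CPM in skin. Il6 went the other way and rose in 5 of 8 comparisons, among them skin day 4, where it reached 147 ± 93.9 CPM in depleted against 16.4 ± 5.44 CPM in control cells (log2 change 3.15, SE 0.56, adjusted p = 0.00694).

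Among 26 other C-type lectin receptor genes, 10 to 20 passed the filter on low counts per tissue. Cd209a, a mannose-binding receptor known from monocyte-derived dendritic cells, fell in 7 of 8 comparisons. It was at 5.88 ± 1.27 CPM in depleted and 35.4 ± 11.1 CPM in control cells of bone at day 7 (log2 change -2.59, SE 0.25, adjusted p = 5.32e-07), and at 27.8 ± 3.58 CPM in depleted and 65.3 ± 12.5 CPM in control skin at day 7 (log2 change -1.23, SE 0.24, adjusted p = 0.00212). At heart day 7 it did not pass (log2 change -0.74, SE 0.46, adjusted p = 0.434). Olr1, a receptor for oxidized low-density lipoprotein, rose at muscle day 7 (log2 change 2.17, SE 0.35, adjusted p = 0.000572), bone day 10 (log2 change 1.67, SE 0.50, adjusted p = 0.0274) and heart day 7 (log2 change 1.00, SE 0.26, adjusted p = 0.0453) and fell at skin day 7 (log2 change -1.11, SE 0.28, adjusted p = 0.0171). Among 5 regulators, Cebpb fell at heart day 4 (log2 change -1.61, SE 0.24, adjusted p = 0.000962) and rose at muscle day 7 (log2 change 0.77, SE 0.17, adjusted p = 0.00716).

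**Figure D4:**
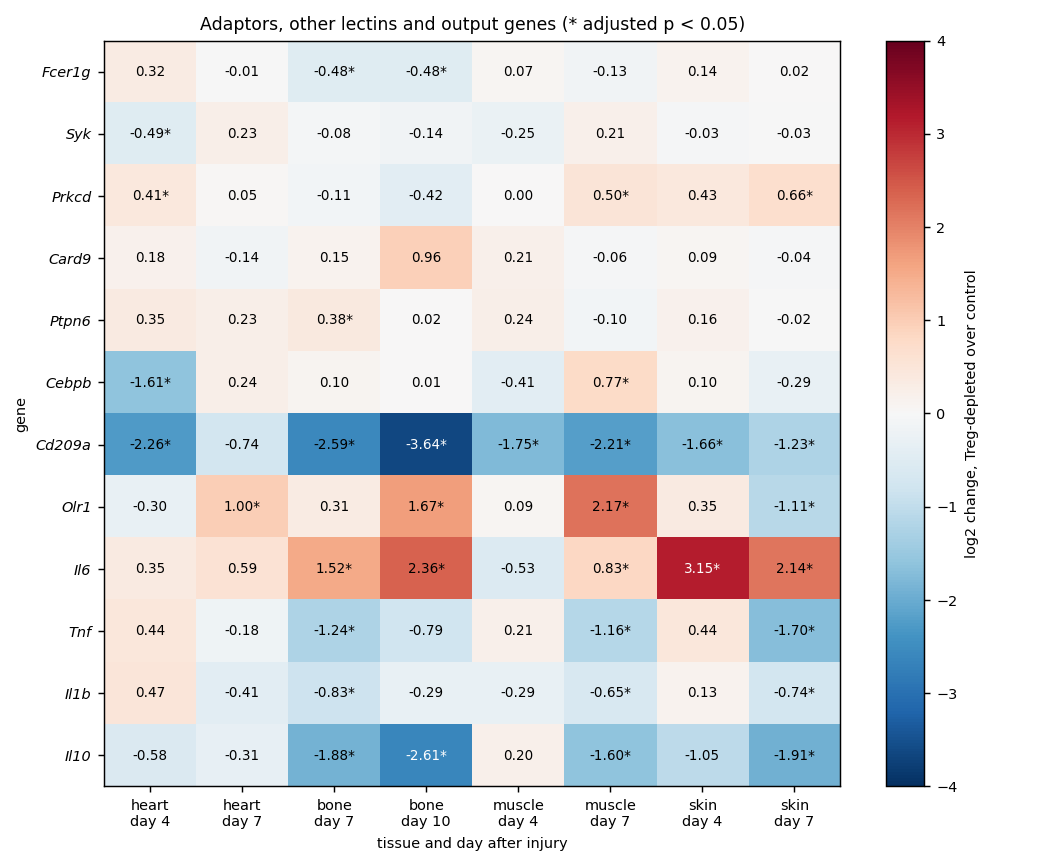
Log2 change with depletion of 12 other genes (signalling and regulator genes, the lectin receptors Cd209a and Olr1, and cytokines), Treg-depleted over control, by tissue and day. Numbers are the changes, an asterisk marks an adjusted p below 0.05, and the colours run from -4 (blue) to 4 (red). Cd209a is lower in 7 of 8 columns with an asterisk, and Il6 is higher in 5.

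The pattern of each receptor over the 12 group means of bone, muscle and skin was compared with 11841 other genes by Pearson's correlation of log2 CPM, as a description, since these means share libraries, tables and the tissue differences. Among the receptors, Clec4d and Clec4n were most alike (r = 0.930 over 12 group means), followed by Clec4a2 and Mgl2 (0.846) and Clec10a and Mgl2 (0.744), the last pair sharing transcript words. Clec12a ran against all 7 others, from -0.716 with Clec4n to -0.223 with Clec7a. Outside the 8 genes, the most alike were, for Clec4e, Ptgs2 (0.984) and Nlrp3 (0.963), the genes of an inflammatory cyclooxygenase and an inflammasome sensor, and Gm22317 (0.958). Pdgfa (0.967), a growth factor gene, Smox (0.954) and Mmp14 (0.941) were most alike for Clec4d. For Clec10a they were Nostrin (0.977), Gm48582 (0.974) and Ciita (0.951), the master regulator of MHC class II genes. For Mgl2 they were H2-DMb2 (0.932), an MHC class II chaperone gene, Gfra2 (0.922) and Tnip3 (0.918), and for Clec7a St7 (0.923), Slc30a4 (0.882) and Il4i1 (0.876). Clec4n was nearest to Bvht (0.954), Eva1b (0.945) and Ifnar1 (0.937). Clec4a2 was nearest to Sparcl1 (0.953), Spty2d1 (0.935) and Gpihbp1 (0.926), and Clec12a to Btbd10 (0.962), Or8b48 (0.936) and Zfp367 (0.934).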

How the data were processed

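RNA of sorted monocytes and macrophages was sequenced in bulk as 3′ libraries with molecular identifiers, per the labels' protocols. The heart table holds counts per gene deposited by the authors, with STAR, Salmon, featureCounts, limma and GRCm38 named in the submitters' processing notes. The table of bone, muscle and skin holds estimated counts deposited by the authors, with STAR, featureCounts, limma, GRCm38 and GRCm39 named in those notes. In it 19.4% of values differ from a whole number by more than 0.01, and they were rounded before the tests. The annotation, the tool versions and the way molecular identifiers were collapsed were not given in the sources used here. Unused sample columns numbered 0.

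Counts were normalized by TMM, filtered with filterByExpr and tested with edgeR's quasi-likelihood test (edgeR 4.0.16, limma 3.58.1, DESeq2 1.42.0, R 4.3.3), with Benjamini-Hochberg adjustment over all genes tested and a threshold of 0.05. Each tissue was fitted with its 4 groups, and bone, muscle and skin together with 12 groups for differences between tissues. The fits gave 28 comparisons. The steps were tested on simulated data. Results were recomputed, where a setting applied, with limma-voom, with DESeq2, with Rn18s-rs5 as a covariate, with a block for the replicate number, with RLE normalization, without the filter on low counts, with only the groups compared, with close relatives summed (Clec10a with Mgl2, and Clec4a2 with Clec4a1, Clec4a3 and Clec4a4) and with each library left out. The covariate and the block were fitted in bone, muscle and skin and not in heart, and relatives were summed for Clec10a, Mgl2 and Clec4a2. Only calls of the 8 receptors were checked in these ways, and all other genes were tested with edgeR alone. The 8 genes, the lists and the tests were chosen with earlier results of these data known. Besides the 8 genes, the text names Fcer1g, Syk, Card9, Ptpn6 and Cebpb, list genes that passed in 1 direction in at least 3 of the 8 depletion comparisons, the highest gene of each marker list it describes, and the 3 genes most like each receptor among those with a group mean of at least 5 CPM.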

Additional observations from a re-analysis of the deposited data

Results flagged for a closer look

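Each receptor gene was checked in each group of 4 or 5 libraries, which gave 48 sets of values. Of these sets, 5 held a library far from the rest of its group, where chance gives about 1 in 20 for a single set. The sets share libraries and are not independent, so their count cannot be weighed against that rate. Clec10a was at 277 CPM in skin day 7 depleted library 3, above the other libraries of its group. Clec12a was at 62.5 CPM in the same library, below the others. Clec4e was at 139 CPM in skin day 7 depleted library 4, below the others. Clec4n was at 28.8 CPM in bone day 7 depleted library 4, below the others. Mgl2 was at 97.9 CPM in bone day 7 depleted library 3, above the others.

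The change with depletion differed between days or tissues, by a test of the difference itself with edgeR's quasi-likelihood test, for 14 values. Between days in muscle the log2 difference was -1.36 for Clec4n and 1.52 for Mgl2. Between days in skin it was -1.71 for Clec4e and 1.59 for Mgl2. For bone against muscle at day 7 it was -1.51 for Clec4d, -1.15 for Clec7a and -0.82 for Clec4a2. For bone against skin at day 7 it was -2.23 for Clec4d, -2.31 for Clec4n, -1.73 for Clec7a, -1.31 for Clec10a and -1.65 for Mgl2. For muscle against skin at day 7 it was 1.28 for Clec4e and -1.95 for Clec4n. The cause of these differences was not tested.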

How the results depend on the processing

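Of 74 called values of the 8 receptors in 28 comparisons, 52 held with every library left out in turn, 44 held under every alternative run, and 0 changed direction. DESeq2 kept 73 of 74 and added 16 calls, limma-voom kept 74 and added 4, no filter on low counts kept 73 and added 28, RLE normalization kept 73 and added 0, and fits of the compared groups alone kept 63 of 70 and added 14. With Rn18s-rs5 as a covariate 50 of 63 were kept and 2 added, and with close relatives summed 19 of 25 were kept and 8 added. Clec10a and Mgl2 shared the same summed value, which was scored for both genes. A call kept or added for either can therefore be that of the other. Heart has no fit with Rn18s-rs5 or with the block.

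The larger relative moves in the counts of receptors called, and those to or from 0, were as follows. Smaller moves are not listed. With no filter they were 2 at heart day 4 (1 in the report), 5 at heart day 7 (3), 1 at muscle day 4 (0) and 2 at skin day 4 (1) for depletion. Between days they were 5 in control heart (3), 5 in control muscle (2), 4 in depleted skin (2) and 1 in control skin (0), and for depletion by day 1 in heart (0) and 2 in bone (0). They were 5 for control bone over muscle (3) and 2 for depletion in muscle against skin at day 4 (0). With DESeq2 they were 2 at heart day 4, 5 at heart day 7, 2 for depletion by day in bone, 5 between days in control muscle, 4 between days in depleted skin and 1 for muscle against skin at day 4. With the compared groups alone they were 2 at heart day 4, 6 between days in control heart, 2 between days in depleted heart (4), 5 between days in control muscle, 2 at skin day 4, 5 for control muscle over skin at day 4 (3), and 1 each for depletion in muscle against skin at day 4 (0) and day 7 (2). With Rn18s-rs5 they were 0 at bone day 10 (3), 2 at muscle day 7 (4), 3 between days in depleted muscle (5), 0 for depletion by day in muscle (2) and 3 at skin day 7 (5). The causes of these moves were not tested.

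With 1 library left out, the counts for depletion ranged over 1 to 2 at heart day 4, 0 to 3 at heart day 7, 3 to 5 at bone day 7, 0 to 3 at bone day 10, 0 to 0 at muscle day 4, 3 to 4 at muscle day 7, 1 to 1 at skin day 4 and 3 to 5 at skin day 7. Between days they ranged over 2 to 4 in depleted and 2 to 3 in control heart, 4 to 6 in depleted and 0 to 0 in control bone, 5 to 6 in depleted and 2 to 3 in control muscle, and 2 to 3 in depleted and 0 to 0 in control skin. For depletion by day, skin had 2 to 2, muscle 1 to 3, heart 0 to 1 and bone 0 to 0. Between control tissues they were 3 to 4 for bone over muscle, 6 to 7 for bone over skin, and 3 to 5 at day 7 and 1 to 3 at day 4 for muscle over skin. For depletion between tissues they were 2 to 4 for bone against muscle, 5 to 6 for bone against skin, and 1 to 2 at day 7 and 0 to 0 at day 4 for muscle against skin.

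The replicate numbers gave no sign of pairing in bone, muscle and skin: over 22 pairs with the same number, deviations from the group means correlated at -0.12 to 0.14, with 2 over 0.1. The numbers are those of the sample titles, which state no pairing. Neither this check nor the block can therefore show whether libraries shared a batch. With the replicate number as a block 62 of 63 calls were kept. Clec12a in control muscle over skin at day 4 was lost, and Clec10a was added at bone day 7 and between days in depleted skin. A change that missed the threshold is not shown to be absent.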
